A study of Homo sapiens with 6 samples.

Results

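The genes described here are 10 long noncoding RNA genes whose transcripts are abundant in many human cells: MALAT1, NEAT1, GAS5, SNHG1, SNHG3, SNHG5, SNHG8, SNHG12, SNHG15 and SNHG16. They were taken by name, from 58121 genes annotated by GENCODE release 29 on chromosomes 1 to 22 and X of build GRCh38. The rule that chose them uses no value measured in these cells, but earlier results of these data were known when it was made. Sites of active transcription initiation at these genes were read from deposited lists of peaks. The peaks were called by dREG, a machine-learning method that recognises promoters and enhancers by the paired bursts of run-on reads on opposite strands.

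The libraries were made from untreated K562 cells, an established human leukaemia line, by precision run-on sequencing (PRO-seq), in which engaged RNA polymerases add a biotin-labelled nucleotide to the RNA they are making. Groups were named PRO-seq 1M (published protocol, 1M permeabilized cells, 3 affinity purifications, 11 PCR cycles), qPRO-seq 1M (a quick version with 1 purification, same input and cycles) and qPRO-seq 250k (the quick version, 250k cells, 14 cycles). Each group had 2 biological replicates at least 3 passages apart, and 1 peak list stood for both. The lists held 24707, 38177 and 15562 peaks in that order, an order kept wherever 3 values are given below without names. Lists carry no read counts, so depth is unknown and a protocol, its input and the depth of its libraries cannot be told apart; with 1 list per group no value has a replicate spread and no test between groups was possible. The labels call the line lymphoblastoid. Of 6 erythroid marker genes, 5, 6 and 5 had a start peak. The B lymphoid markers PAX5, CD79A and MS4A1 and all 3 T lymphoid markers had none in any list, and EBF1, another B lymphoid marker, had a start peak in both 1M lists.

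MALAT1 and NEAT1 encode RNAs that stay in the nucleus. MALAT1 RNA collects in nuclear speckles, where splicing factors are stored, and the long NEAT1 transcript is the scaffold around which paraspeckles assemble. The other members are small nucleolar RNA (snoRNA) host genes. Their introns carry snoRNAs, which guide the chemical modification of ribosomal and spliceosomal RNA and are cut out of the spliced introns, while the exons are often degraded in the cytoplasm by nonsense-mediated decay. Many host genes share with ribosomal protein genes a transcript that begins with a C and a run of pyrimidines, the 5′ terminal oligopyrimidine tract.

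All 10 members had a start peak, a peak within 500 bp of an annotated transcript start, in all 3 lists. Among all 15996 long noncoding RNA genes, which include the members, 15.1%, 17.2% and 11.7% had a start peak, and 11.2% had 1 in every list. Protein-coding genes stood higher, at 52.9%, 54.5% and 44.0%, with 43.1% in every list, and the 79 cytosolic ribosomal protein genes higher still, at 93.7%, 93.7% and 91.1%, with 89.9% in every list. The 18 other SNHG genes, all named as snoRNA hosts, lay between, at 72.2%, 72.2% and 66.7%. The members also have many annotated starts, from 3 to 17 with a median of 12, against a median of 1 for long noncoding RNA genes. Among the 1883 long noncoding RNA genes with 3 to 17 starts, 32.0%, 36.4% and 26.2% had a start peak and 25.5% had 1 in every list.

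**Figure D1:**
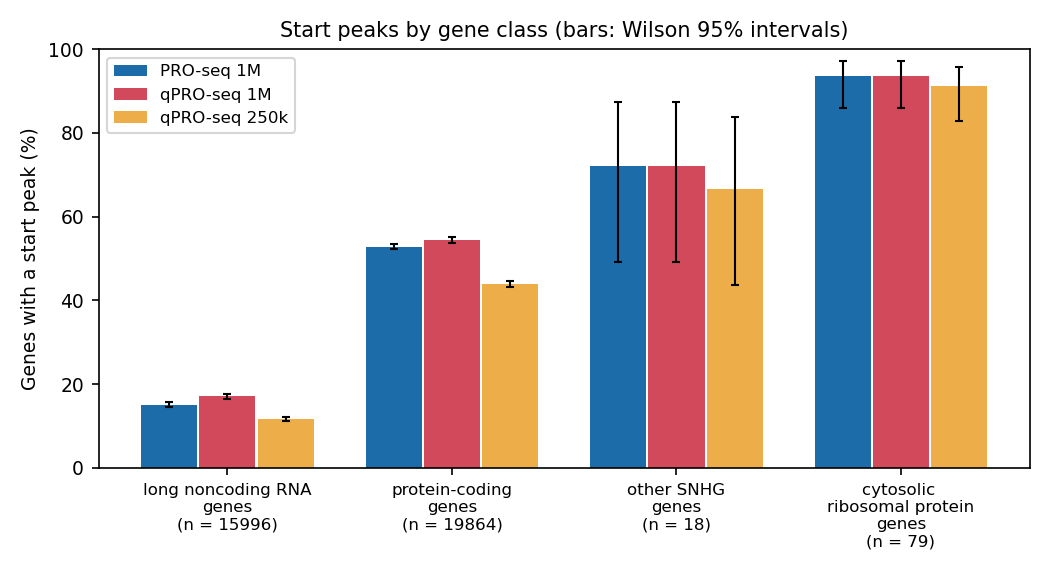
Percent of genes with a start peak (vertical axis) in 4 gene classes, 1 bar per peak list; error bars are Wilson 95% intervals, which cover counting error only. The bars rise from 15.1%, 17.2% and 11.7% for long noncoding RNA genes to 93.7%, 93.7% and 91.1% for cytosolic ribosomal protein genes.

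The first 2 sequences below, from RefSeq on GRCh38.p14, show that MALAT1 has 2 annotated starts of different kinds. The other 4 show snoRNA hosts whose run of pyrimidines begins within 5 bases of the start. The windows of GAS5, SNHG1 and SNHG3, whose runs begin farther from it, are not printed. RefSeq promoters were matched by symbol for 8 of the 10 members, and MALAT1 had 2. Each line gives 50 bases before the RefSeq start, the start base and 49 bases after it, 5′ to 3′ on the gene's own strand. Capitals mark the longest run of C and T that begins with C within 20 bases of the start, where it is at least 5 bases long, and a TATAAA or TATATAA between 40 and 10 bases before the start. Positions are counted from the start base as 0, and a TATATAA followed by A also holds TATAAA.
MALAT1 upstream start, chr11:65497688-65497787, plus strand: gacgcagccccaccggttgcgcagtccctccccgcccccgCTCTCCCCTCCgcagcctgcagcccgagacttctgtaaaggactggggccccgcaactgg
MALAT1 internal start, chr11:65498995-65499094, plus strand: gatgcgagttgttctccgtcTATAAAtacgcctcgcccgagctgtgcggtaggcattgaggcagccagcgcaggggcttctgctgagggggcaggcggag
SNHG5, chr6:85678684-85678783, minus strand: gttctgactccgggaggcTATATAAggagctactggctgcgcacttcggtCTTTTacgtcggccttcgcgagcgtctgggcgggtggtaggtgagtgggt
SNHG8, chr4:118278712-118278811, plus strand: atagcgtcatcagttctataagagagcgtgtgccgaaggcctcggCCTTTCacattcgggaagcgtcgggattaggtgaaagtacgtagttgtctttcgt
SNHG12, chr1:28581824-28581923, minus strand: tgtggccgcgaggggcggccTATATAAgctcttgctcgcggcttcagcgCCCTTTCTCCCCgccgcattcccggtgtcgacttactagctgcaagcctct
SNHG16, chr17:76557714-76557813, plus strand: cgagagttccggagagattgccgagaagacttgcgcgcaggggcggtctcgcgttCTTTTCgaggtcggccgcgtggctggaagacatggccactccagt

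The upstream MALAT1 start sits in GC-rich sequence with no TATA motif in that place, and the internal start has TATAAA at position -30. Over the whole 300-base promoter (250 bases before the start to 50 after), GC content was 73.7% with 37 CpG at the upstream start and 46% with 14 CpG at the internal start, beside medians of 58.7% and 14 over 34961 RefSeq promoters. Among the hosts, SNHG5 has TATATAA at position -32 and SNHG12 at -30. A TATAAA or TATATAA in that place on the sense strand was found in 3 of the 9 member promoters and in 2.74% of all promoters. TATATAA was added to the search after the member sequences were read, so its share is a description only.

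A pyrimidine run began within 5 bases of the start in SNHG5, SNHG8, SNHG12 and SNHG16. In GAS5, SNHG1 and SNHG3 the longest runs, of 3, 6 and 5 bases, began at positions 19, -19 and 19. The SNHG12 run of 12 bases begins at position -1, and a run at least that long near the start was found in 3.82% of all promoters. In SNHG5 the run begins at the start base itself, in SNHG8 at -5 and in SNHG16 at 5, and these runs of 5 or 6 bases are near the median of 5 over all promoters. CTTTC anywhere on the sense strand was present in 4 of 9 member promoters (MALAT1, SNHG8, SNHG12, SNHG16) and in 32.7% of all promoters, and CTTTTC in SNHG16 and in 11.5%. On either strand, GGGCGG was found in 6 of 9 and in 45.0% of all, CCGGAA in 3 and 17.3%, CCAAT in 2 and 34.6%, AGATAA in 2 and 10.3%, and TATAAA at any place in 2 and 11.5%. CACGTG, a letter sequence known as the E-box, was found in none of the 9 and in 7.27% of all promoters. The NRF1 motif and the YY1 motif, searched in their longer forms, were also found in none of the 9, beside 1.24% and 0.852% of all promoters.

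The authors' score of a start peak was used only to rank it within its own list. A list percentile is the percent of peaks of that list with the same or a lower score, and the top start peak of a gene is the one with the highest score. The median list percentile of the members' top start peaks was 97.0, 94.2 and 84.6. For all long noncoding RNA genes with a start peak the medians were 72.8, 74.6 and 67.3, for all genes with 1 they were 75.6, 79.3 and 67.8, and for the ribosomal protein genes 79.8, 85.5 and 71.2. At or above percentile 90 stood 6, 6 and 3 of the 10 members, and 20.6%, 24.0% and 18.0% of the long noncoding RNA genes with a start peak. A top peak is the highest over all starts of a gene, and the members have more starts, with a median of 12 against 1. Percentiles were not compared with those of genes that have as many starts. NEAT1 was the lowest member in every list, and SNHG3, a snoRNA host, was the highest. MALAT1 was the next lowest in both 1M lists, and above 4 of the hosts in qPRO-seq 250k.

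**Figure D2:**
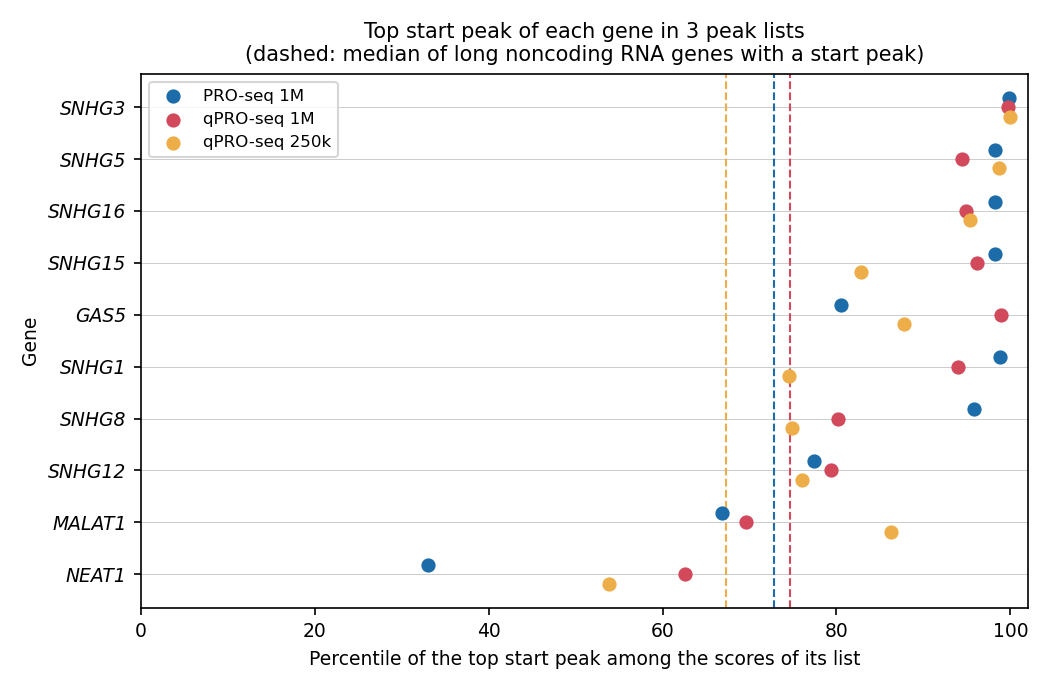
Percentile of each gene's top start peak among the scores of its own list (horizontal axis), 1 point per peak list; dashed lines give the median of long noncoding RNA genes with a start peak in the list of that colour. SNHG3 stands above percentile 99 in all 3 lists, and NEAT1 lies left of all 3 dashed lines at 33.0, 62.6 and 53.8.

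MALAT1 (ENSG00000251562.8, lincRNA) spans chr11:65497688-65506516 on the plus strand and has 15 annotated starts. It had 3, 5 and 3 start peaks and none elsewhere in its body. Among long noncoding RNA genes with a start peak, 5 or more were found for 0.729% in qPRO-seq 1M. The peaks formed 2 groups, at the 5′ end and more than 1 kb inside the gene. In each list 1 peak lay over each of the 2 RefSeq starts shown above, and the other peaks covered neither.

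The peak over the upstream MALAT1 start stood at percentile 56.9 of PRO-seq 1M (65497541 to 65497930), 69.5 of qPRO-seq 1M (65497541 to 65498020) and 75.3 of qPRO-seq 250k (65497541 to 65497980). The peak over the internal start stood at percentile 66.8 (65498571 to 65499310), 59.4 (65498761 to 65499210) and 86.3 (65498671 to 65499330). PRO-seq 1M and qPRO-seq 250k thus had their top MALAT1 peak at the internal start and qPRO-seq 1M at the upstream start; qPRO-seq 1M also divided the internal region into 2 peaks. Relative to the RefSeq internal start, the internal peak was centred at -85, -135 and -35 bp, and GENCODE places the starts of 3 shorter MALAT1 transcripts at 65499042, 1354 bp from the 5′ end. A further peak before the 5′ end stood at percentiles 48.8, 48.7 and 11.4. AP000769.2, a lincRNA gene on the minus strand, starts inside MALAT1 at 65498405, 717 bp from its 5′ end, and had the same top peak as MALAT1 in all 3 lists. A dREG peak carries no strand, so the share of each gene in these peaks cannot be told apart.

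Beyond the MALAT1 3′ end, which is known to be cut by RNase P rather than polyadenylated in the usual way, each list held a further peak within 1 kb. It lay at 65507121 to 65508100 in PRO-seq 1M (percentile 39.4) and at 65507121 to 65507610 in qPRO-seq 1M (28.2), 605 bp past the annotated end. In qPRO-seq 250k the same stretch held 3 peaks, the highest at 65507351 to 65507960 (50.9). No other member had a peak within 1 kb of its 3′ end in all 3 lists. GAS5 and SNHG12 had such peaks in qPRO-seq 250k only, all below percentile 40. No share over all genes stands beside these peaks, and a link to the way the MALAT1 end is made was not tested.

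NEAT1 (ENSG00000245532.8, lincRNA) spans chr11:65422774-65445540 on the plus strand, 52.1 kb from MALAT1 on the same strand, and no other gene of the kinds searched (protein-coding or long noncoding) starts within 1 kb of its 5′ end. It had 1 start peak per list, with centres at 65422740, 65422760 and 65422810, a span of 70 bp. Their scores were 0.488, 0.649 and 0.587, at percentiles 33.0, 62.6 and 53.8. Ranked among all genes with a start peak, NEAT1 stood at percentile 10.9 of 13625 genes, 28.0 of 14509 and 34.6 of 11204. Its start was thus marked in every list, and by a peak below the median of long noncoding RNA genes in each of them. With the lists reduced to their 15562 top-scored peaks, the length of the shortest, NEAT1 had no start peak in PRO-seq 1M and stood at percentile 8.23 of qPRO-seq 1M.

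NEAT1 makes a short polyadenylated RNA and, when that end is not used, the long scaffold RNA from the same start. Inside the gene, a peak lay at 65427061 to 65427610 in PRO-seq 1M (percentile 14.6) and at 65426961 to 65427730 in qPRO-seq 1M (49.8). Its centres lay 4.45 and 4.68 kb from the 5′ end, past the annotated 3′ ends of all the shorter transcripts, the farthest of which is at 65426513. A pair of further peaks followed in qPRO-seq 1M alone, at percentiles 13.5 and 40.9, and qPRO-seq 250k had none inside the gene. With peaks kept only from the median score of their list upward, no list had a peak inside NEAT1 away from its starts.

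**Figure D3:**
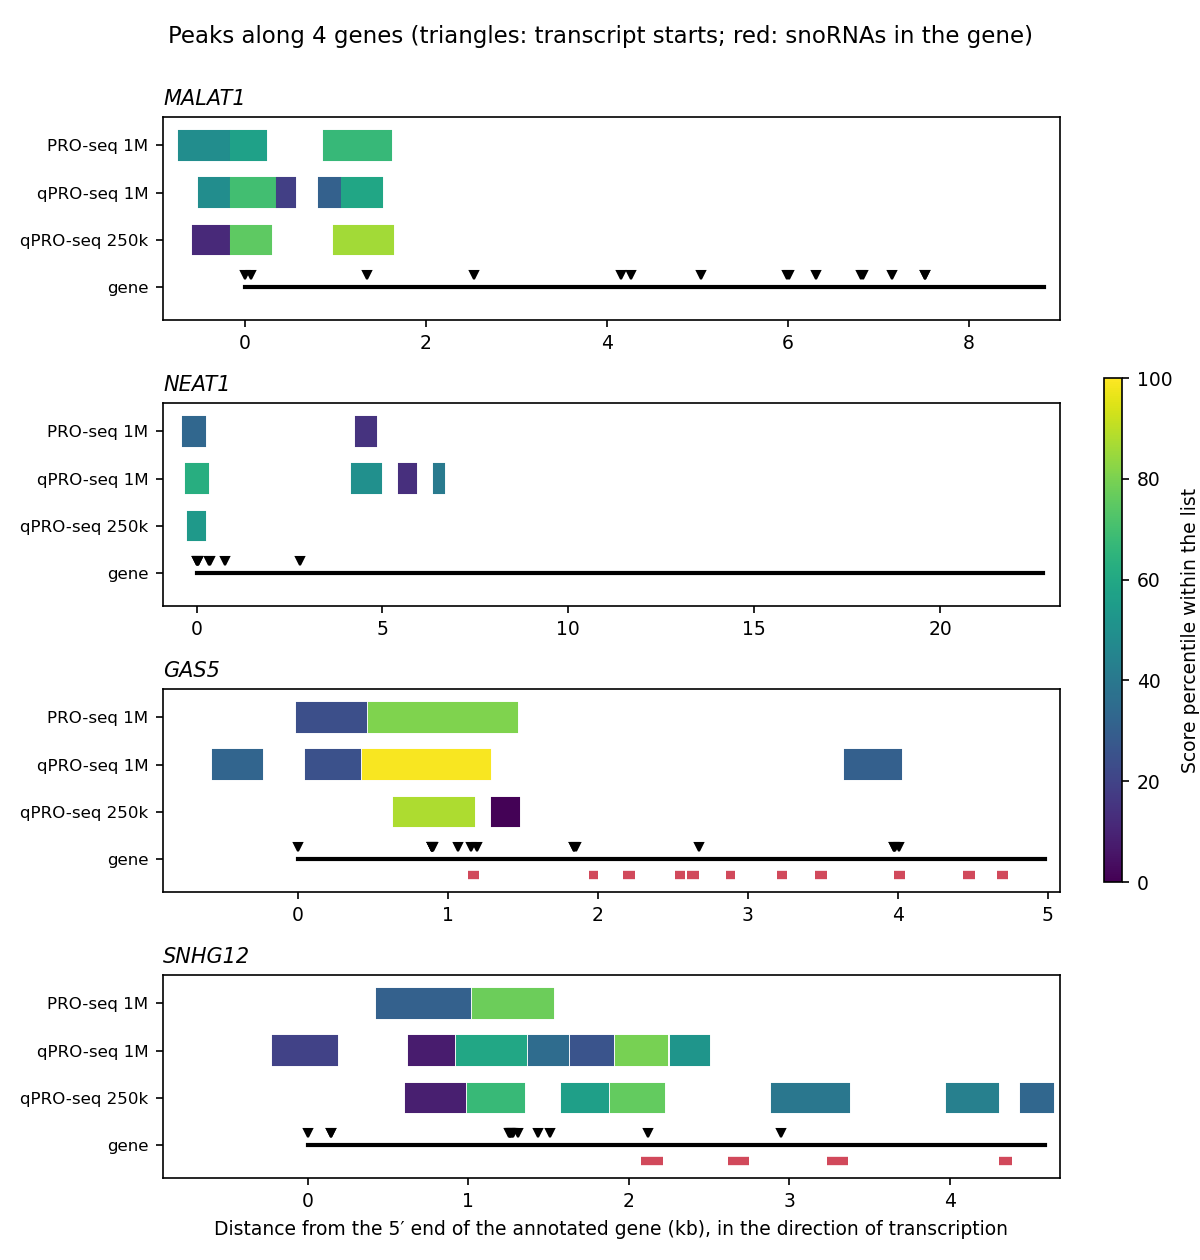
Peaks (coloured boxes, colour giving the score percentile within the list) along MALAT1, NEAT1, GAS5 and SNHG12, by distance from the annotated 5′ end in kb; each panel has a row per list and the gene as a black line. Triangles are annotated transcript starts and red boxes are snoRNAs; MALAT1 shows peaks at its 5′ end and over 1 kb inside in all 3 lists, and SNHG12 shows a run of neighbouring peaks.

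GAS5 (ENSG00000234741.7) spans chr1:173863900-173868882 on the minus strand and hosts 11 snoRNAs, the most of any member. It has 17 annotated starts, and its RNA is known to accumulate when growth stops. It had 2, 4 and 2 start peaks, and the top one was centred at 173867980, 173867990 and 173867980, within 3 bp of an annotated GAS5 start in each list. That site lies about 0.9 kb inside the longest annotation. The scores were 0.923, 1.19 and 0.868, at percentiles 80.5, 99.0 and 87.8, so that qPRO-seq 1M placed GAS5 among the upper 51 of 2745 long noncoding RNA genes and PRO-seq 1M at rank 916 of 2413. The start that RefSeq gives, at 173869045, had no peak of any list within the 100 bases around it. ZBTB37, a zinc finger gene on the other strand, starts 74 bp from the annotated 5′ end. The smaller peaks there, at percentile 24.2 of PRO-seq 1M and 24.8 and 32.3 of qPRO-seq 1M, cannot be told apart between both genes. Only the ZBTB37 start nearest the 5′ end was compared, so a share of ZBTB37 in the top GAS5 peak was not tested.

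SNHG1 (ENSG00000255717.6) spans chr11:62851988-62855914 on the minus strand and hosts 9 snoRNAs in introns between short exons. It faces SLC3A2, the heavy chain of several amino acid transporters, which starts 188 bp away on the plus strand. It had 1, 3 and 2 start peaks, the top one at 62855411 to 62856340 with a score of 1.20 in PRO-seq 1M, at 62855571 to 62856260 with 1.04 in qPRO-seq 1M, and at 62855761 to 62856260 with 0.737 in qPRO-seq 250k. These stood at percentiles 98.8, 93.9 and 74.5, the widest range of any snoRNA host. Each of these top peaks also covers the SLC3A2 start at 62856102. A dREG peak carries no strand, so the share of each gene in their scores cannot be told apart. The single PRO-seq 1M peak, of 930 bp, overlapped all 3 start peaks of qPRO-seq 1M and both of qPRO-seq 250k.

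SNHG3 (ENSG00000242125.3) spans chr1:28505980-28510892 on the plus strand and hosts SNORA73A and SNORA73B. Its 5′ end is also a start of RCC1, the exchange factor of the Ran GTPase, on the same strand, so their start peaks are the same peaks. It had 1 start peak per list, at 28505431 to 28506380, 28505481 to 28506490 and 28505551 to 28506310. The scores were 1.28, 1.28 and 1.23, at percentiles 99.8, 99.8 and 99.9. SNHG3 ranked 9, 16 and 2 among the long noncoding RNA genes with a start peak, the highest rank of any member in each list. The centres fell within 40 bp of each other and within 30 bp of the annotated start.

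SNHG12 (ENSG00000197989.14, antisense) lies 67.6 kb from SNHG3, at chr1:28578538-28583132 on the minus strand, and hosts 4 snoRNAs. It had 2, 7 and 5 start peaks. In qPRO-seq 1M, 0.0729% of long noncoding RNA genes with a start peak had 7 or more, and in qPRO-seq 250k 0.161% had 5 or more. Joined across lists, 11 of these peaks formed a single region at 28580891 to 28582700. The peak over the RefSeq start shown above, with its run of 12 pyrimidines, stood at percentiles 77.5, 59.5 and 67.5, and was the top one in PRO-seq 1M, centred at 28581860.

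Both quick lists placed the top SNHG12 peak elsewhere, at 28580891 to 28581210 in qPRO-seq 1M (percentile 79.4) and at 28580911 to 28581240 in qPRO-seq 250k (76.0). That peak covers SNORA16A, a snoRNA of the H/ACA class, and PRO-seq 1M had no peak over it. In qPRO-seq 250k a further peak covered part of SNORA61 (39.7), and 2 peaks away from any start lay near the 3′ end at percentiles 33.2 and 43.0. The annotated GENCODE start nearest to the SNORA16A peak is at 28581010, inside the snoRNA.

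SNHG5, SNHG8, SNHG15 and SNHG16 had 1 start peak per list. SNHG5 (ENSG00000203875.11, chr6:85660950-85678748, minus strand) hosts SNORD50A and SNORD50B, and stood at percentiles 98.3, 94.4 and 98.7 with scores of 1.18, 1.05 and 1.08. With SNHG3 and SNHG16 it was above percentile 94 in all lists, and it had no peak elsewhere in the gene. No other gene of the kinds searched starts within 1 kb. Its centres lay at -102, -82 and -112 bp from the annotated 5′ end. SNHG16 (ENSG00000163597.14, chr17:76557766-76565348, plus strand) hosts 3 snoRNAs and stood at 98.2, 94.8 and 95.3, but AC015802.4, an antisense gene, starts 83 bp away and had the same top peak in every list.

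SNHG15 (ENSG00000232956.8, chr7:44983023-44986961, minus strand) hosts SNORA9. It stood at percentiles 98.2, 96.2 and 82.8, with scores of 1.18, 1.09 and 0.814. SNHG8 (ENSG00000269893.6, chr4:118278709-118279823, plus strand) is the shortest member at 1.12 kb and hosts SNORA24. It stood at 95.8, 80.2 and 74.9, with scores of 1.12, 0.839 and 0.741. For both genes the percentile was highest in PRO-seq 1M and lowest in qPRO-seq 250k, an order that SNHG1 shares and that SNHG5, SNHG16 and SNHG3 do not. With the lists reduced to equal length, SNHG1 and SNHG15 kept this order, and SNHG8 stood at 93.3, 51.4 and 74.9, with qPRO-seq 1M lowest. Under that setting MALAT1 and SNHG12 stood at 25.3 and 49.4 in qPRO-seq 1M. Percentiles of lists of different length show no change in transcription, and these are given side by side only.

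**Figure D4:**
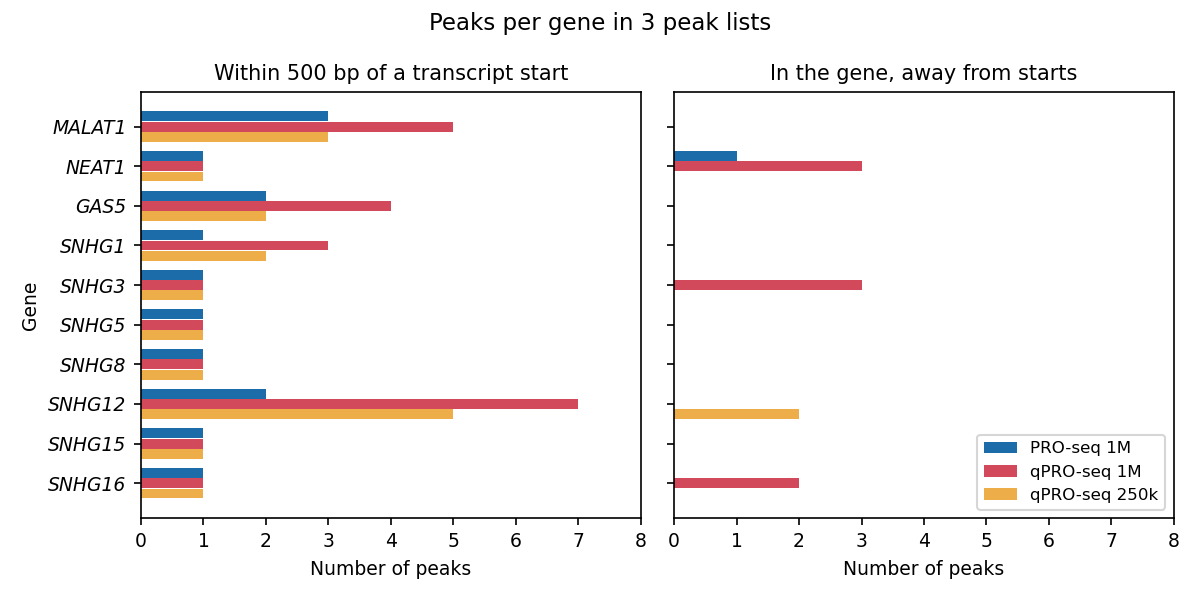
Number of peaks per gene within 500 bp of a transcript start (left) and elsewhere in the gene (right), 1 bar per peak list. SNHG12 reaches 7 start peaks in qPRO-seq 1M, and 6 genes have exactly 1 start peak in every list.

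Over all members, start peaks numbered 14, 25 and 18, and body peaks, those inside a gene and away from its starts, 1, 8 and 2. More than 1 start peak was found for 3, 4 and 4 members, and for 41.1%, 48.5% and 28.8% of long noncoding RNA genes with a start peak. The 4 members were MALAT1, GAS5, SNHG12 and, in the quick lists alone, SNHG1. They have 14 to 17 annotated starts, and the members with 1 peak have 3 to 10, except SNHG5, which has 17. Among long noncoding RNA genes with 11 to 17 starts and a start peak, 57.8%, 67.9% and 42.5% had at least 2, and with 3 to 10 starts 46.1%, 52.9% and 29.3%. The part of the number of starts in the members' peak numbers was not tested further.

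Body peaks fell in 1, 3 and 1 members: NEAT1 in PRO-seq 1M, NEAT1, SNHG3 and SNHG16 in qPRO-seq 1M, and SNHG12 in qPRO-seq 250k. The share among long noncoding RNA genes of 3 to 30 kb with a start peak was 21.0%, 27.7% and 14.0%, so the members' numbers lie near the background. Their scores were low, at percentiles 13.5 to 49.8 of qPRO-seq 1M. The SNHG3 body peaks lay 1.78, 2.55 and 3.29 kb from the 5′ end, and the middle one covered SNORA73B. Those of SNHG16 lay 1.76 and 5.32 kb from its 5′ end and covered no snoRNA.

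Start peaks of the members joined into 18 regions, of which 12 (66.7%) had a peak in all 3 lists, 5 in qPRO-seq 1M alone and 1 in qPRO-seq 250k alone. Of all 17370 joined regions near a transcript start, 52.5% had a peak in all 3 lists. The 5 regions of qPRO-seq 1M alone lay in MALAT1, in GAS5 and SNHG12, with 2 regions in each of the last pair, and the region of qPRO-seq 250k alone was that over SNORA61. Of 10 body regions none was in all 3 lists, 1 (in NEAT1) was in both 1M lists, 7 were in qPRO-seq 1M alone and 2 in qPRO-seq 250k alone. Of all 16938 regions away from starts, 16.2% were in all 3 lists. Seen from each list, 13 of 14 start peaks of PRO-seq 1M, 15 of 25 of qPRO-seq 1M and 14 of 18 of qPRO-seq 250k were overlapped by both other lists.

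Peak positions were close between lists for all members but MALAT1 and SNHG12. Centres of the top start peak spanned 10 bp in GAS5, 30 bp in SNHG5 and 40 bp in SNHG3, and at most 130 bp in the other 5. In MALAT1 they spanned 1180 bp and in SNHG12 840 bp, as their top peak changed place. Top start peaks had median widths of 770, 705 and 585 bp, beside 450, 440 and 430 bp for all peaks of each list. The latter include weak peaks and peaks away from starts, and the top start peaks of other genes were not measured for width.

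Of the 33 snoRNAs that RefSeq places inside the members, 2, 6 and 4 were overlapped by a peak. Over all 1196 RefSeq snoRNA genes the shares were 1.17%, 3.01% and 2.01%. SNORD74 of GAS5 and SNORD25 of SNHG1 were overlapped in all 3 lists, and both lie beside the host's start region, 15 and 77 bp from an annotated host start. Others were SNORD80 of GAS5, SNORD26 of SNHG1 and SNORA73B of SNHG3 in qPRO-seq 1M alone, SNORA16A of SNHG12 in both quick lists, and SNORA61 of SNHG12 in qPRO-seq 250k alone. No snoRNA of SNHG5, SNHG8, SNHG15 or SNHG16 was overlapped in any list. Among the 864 RefSeq snoRNA genes over 1 kb from any transcript start of a gene that is not a snoRNA, 4, 7 and 6 were overlapped, beside 14, 36 and 24 of all 1196; the part of nearness to a start in the members' counts was not tested.

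The genes whose products act with these RNAs were nearly all marked. For comparison, 43.1% of protein-coding genes and 89.9% of cytosolic ribosomal protein genes had a start peak in every list. All 8 core proteins of snoRNA particles had a start peak in every list, among them SNU13, which binds the snoRNA directly (percentiles 89.96, 98.7 and 87.1), and FBL, the methyltransferase fibrillarin (66.1, 75.1 and 54.9). Of 9 assembly factors, 8 had a start peak in each list, from RUVBL1 (86.5, 98.5 and 72.7) to SHQ1 (70.1, 71.1 and 70.5), and ZNHIT3 had none. All 9 paraspeckle protein genes were marked, SFPQ highest in qPRO-seq 1M (98.7, 98.2 and 98.9) and TARDBP lowest (57.6, 74.4 and 86.9). So NEAT1, the scaffold RNA, stood below each of these 9 protein partners in qPRO-seq 1M. All 7 genes of nuclear speckle proteins and MALAT1 processing were marked, from SRSF3 (98.0, 99.6 and 99.5) to SRRM2 (85.7, 81.8 and 87.5). UPF3B, a factor of nonsense-mediated decay, stood at 95.3, 97.3 and 85.7.

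Other noncoding genes gave a mixed picture. Of 13 other well-known long noncoding RNA genes, 8, 9 and 7 had a start peak, with TUG1 highest in qPRO-seq 1M (82.4, 91.2 and 83.2) and EPB41L4A-AS1 lowest (44.5 and 10.8 in the 1M lists, none in qPRO-seq 250k). OIP5-AS1, H19, MEG3 and HOTAIR had none in any list. Of the other SNHG genes, SNHG4 (99.8, 94.5 and 93.1), SNHG6 (98.9, 95.6 and 92.5) and SNHG21 (98.8, 96.4 and 91.3) had the highest mean percentiles, and SNHG14, SNHG18 and SNHG27 were among those without a start peak. The top start peaks of the other SNHG genes had medians of 87.0, 80.3 and 80.5, below the members' in each list.

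For each member, the long noncoding RNA gene with the most similar start peaks was found by the distance between gene percentiles, the rank of the top start peak among all genes with 1, over the 3 lists. MALAT1 and SNHG16 were nearest to AP000769.2 and AC015802.4 at distance 0, because each pair has the same top peak. SNHG3 (99.6, 99.5 and 99.9) was nearest to AP002364.1 at a distance of 0.376 and SNHG5 (96.1, 84.7 and 97.8) to SLC16A1-AS1 at 0.983. NEAT1 was nearest to AC067852.2, at 2.71, and SNHG15 to AC002467.1, at 1.84. The remaining members were farther from any other long noncoding RNA gene. SNHG12 was nearest to IBA57-DT at 4.59, SNHG8 to AC008972.2 at 4.91, SNHG1 to AL135905.1 at 5.39 and GAS5 to FLJ21408 at 6.89.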

How the data were processed

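The files used were 3 lists of dREG peaks, 1 for each group of 2 replicates. The submitters' processing notes name fastp 0.20.0, Bowtie2 2.3.5.1, deepTools 3.1.3, UMI-tools and build GRCh38 (hg38), with no role or order; the dREG version and its thresholds, and whether replicates were pooled, are not given in the sources used here. Per the labels, each list was named for both replicates of its group. The score of each peak, a number without a unit, and its p-value are as deposited by the authors; whether the p-value was adjusted is not stated, and its highest value was 0.05 in each list. Positions are the authors' own, on a grid of 10 bp, and starts are printed counted from 1. Depth is unknown.

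Peaks on chromosomes 1 to 22 and X were compared with GENCODE release 29 (GRCh38) in Python 3.11.15, numpy 2.4.6 and pandas 2.3.3. A start peak lay within 500 bp of any annotated transcript start of a gene, and a body peak inside the gene otherwise. Regions of different lists were joined where they shared at least 1 bp. Shares have Wilson 95% intervals (scipy 1.17.1), which cover counting error only. snoRNA genes and promoter sequences came from RefSeq (GRCh38.p14). The counting functions were tested on simulated data. No test between groups was made, because each group has 1 list.

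The members and gene lists were chosen with earlier results of these data known. All members were named; of each other list, the genes with the highest and lowest qPRO-seq 1M percentile and those without a start peak (some results of the marker and decay lists are not reported here); of other SNHG genes, the 3 highest means and 3 without a start peak; and the nearest long noncoding RNA gene of each member. Comparison with long noncoding genes that have as many starts as the members was added after the values were seen. Alternatives were windows of 250 and 1000 bp, the gene's 5′ end alone, a p-value of at most 0.01, scores from the list median upward, lists reduced to 15562 peaks, peaks merged within 500 bp, and stricter overlap (50% of both peaks, or centres within 100 bp).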

Additional observations from a re-analysis of the deposited data

How the results depend on the processing

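No paired analysis was possible because each list stands for both replicates of its group and holds no value per replicate. For the same reason no replicate could be left out. Main results were recomputed to give 114 values, of which 70 kept within the interval (or 1.5 times) of the value reported and 44 moved. Percentiles of single members were recomputed apart from these, to give 88 values. Only 13 of the 88 kept within the interval, and these include values of qPRO-seq 250k that could not move at equal list sizes. Where no construction is named the cause was not tested. Equal list sizes leave qPRO-seq 250k, the shortest list, unchanged, so its own values could not move under that setting. All 10 members kept a start peak in each list under every setting run over all 10, except NEAT1 in PRO-seq 1M (9 members) with scores from the list median upward or equal list sizes, and GAS5 and SNHG12 in qPRO-seq 250k (8 members) with the gene's 5′ end alone. Without MALAT1, GAS5, SNHG1, SNHG3 and SNHG16, which have the start of another gene within 1 kb of their 5′ end (an alternative chosen after seeing the data), 5, 5 and 5 of the remaining 5 had a start peak. These values count among the 44 that moved, because 5 members are compared with 10. Shared start regions numbered 10 to 13 under the alternatives.

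Fewer starts by construction gave, with the 5′ end alone, 16 start peaks in qPRO-seq 1M and 10 in qPRO-seq 250k, and 3, 17 and 10 body peaks. A p-value of at most 0.01 left 0 body peaks in PRO-seq 1M and 1 in qPRO-seq 250k, with median percentiles of 96.5, 93.0 and 81.1. Scores from the list median upward left 13 start peaks in qPRO-seq 1M, 0, 0 and 0 body peaks, and medians of 96.4, 88.3 and 69.2, since low peaks also leave the ranking. Equal list sizes left 12 start peaks in qPRO-seq 1M, 0 body peaks in both 1M lists, and a qPRO-seq 1M median of 85.7. Merging left 11 start and 5 body peaks in qPRO-seq 1M and 1 body peak in qPRO-seq 250k.

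Shares of genes with a start peak moved as follows. With 250 bp they were 52.1%, 53.5% and 43.1% for protein-coding and 13.9%, 15.8% and 10.6% for long noncoding RNA genes, and with 1000 bp 53.7%, 55.5% and 44.9%, and 16.7%, 18.9% and 13.04%. At equal list sizes the 1M lists gave 46.97% and 42.4% for protein-coding, 12.4% and 11.5% for long noncoding RNA and, in qPRO-seq 1M, 81.01% for ribosomal protein genes.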
